A study of Mus musculus with 4 samples.

Results

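The Bcl2 family decides whether a cell keeps or breaks its outer mitochondrial membrane, and 10 of its genes were followed here: Bcl2, Bcl2l1 and Mcl1, Bax and Bak1, and Bcl2l11, Bbc3, Pmaip1, Bid and Bad. They were picked by symbol from the 55401 gene models of each file, and all 10 were found. The rule used no measured value, but earlier results of these data were known when the members were chosen. The libraries were made from sorted mouse bone marrow cells that the labels call long-term hematopoietic stem cells (LT-HSCs), while the study's text speaks of hematopoietic stem and progenitor cells for the same assay. KO libraries (n = 2) came from adult mice homozygous for a floxed Cpt1a allele and carrying Vav1-Cre, a transgene active throughout the blood system. Control libraries (n = 2) have the label genotype WT, and the study's text gives Cpt1a fl/fl mice as the controls. The label check held in direction: Cpt1a, which codes for the enzyme that couples long-chain fatty acids to carnitine at the mitochondrion, stood at 11.5 and 19.2 TPM in KO against 37.0 and 35.6 TPM in Control. No label says that replicates came from separate animals, so the p-values below measure how far these libraries vary among themselves, which may be technical variation.

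Cells that die by the mitochondrial route release cytochrome c once BAX or BAK1, the executioners, form pores in the outer membrane. BCL2, BCL-XL (the product of Bcl2l1) and MCL1 hold the executioners in check. The BH3-only proteins, among them BIM (Bcl2l11), PUMA (Bbc3), NOXA (Pmaip1), BID and BAD, sense stress and bind the antiapoptotic proteins or the executioners themselves. Mcl1 is required for the survival of hematopoietic stem cells in the mouse, and Bbc3 and Pmaip1 are known p53 targets. CPT1A sits in the same outer membrane, so the comparison of KO with Control asks whether transcripts of the proteins that control that membrane differed when Cpt1a was deleted.

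The estimated counts of the libraries summed to between 33909781 and 34083159 in KO and between 20589218 and 23291747 in Control. Across the transcriptome 14635 genes were tested with edgeR, and at an adjusted p under 0.05 it called 0.451% of them higher and 0.212% lower in KO. The 10 HSC markers were all detected, at a summed 715 to 731 TPM in KO and 674 to 715 TPM in Control, and edgeR called none of them (0 higher and 1 lower, Mecom, at an unadjusted p under 0.05, and the same gene lower by DESeq2 after adjustment). Markers of other blood cells differed between the groups. B lineage markers summed to 465 to 677 TPM in KO and 65.0 to 97.1 TPM in Control (10 of 10 called higher by edgeR). Mast cell markers summed to 387 to 454 TPM in KO and 46.9 to 83.0 TPM in Control (4 of 8 called higher, with Cma1 and Tpsb2 at 0 in both Control libraries). Erythroid markers summed to 318 to 366 TPM in KO and 850 to 1013 TPM in Control (5 of 10 called lower), and neutrophil markers to 4537 to 4989 TPM in KO and 6270 to 8754 TPM in Control (1 of 8 called lower). Megakaryocyte markers summed to 105 to 128 TPM in KO and 162 to 190.2 TPM in Control (0 of 5 called by edgeR, 1 lower at an unadjusted p under 0.05, and Pf4 called lower by DESeq2). T cell markers summed to 64.0 to 71.7 TPM in KO and 46.9 to 91.4 TPM in Control, and the KO sums lay within the Control range. Of that list Cd3e was at 0 in every library, while Lck had 38.2 and 34.6 TPM in KO and 74.6 and 46.9 TPM in Control. In counts scaled by depth, both KO libraries lay above both Control libraries for Lck (log2 fold change 0.21). Trbc1 had 13.85 and 22.13 TPM in KO and 6.18 and 0 TPM in Control. Trbc2 had 18.03 and 7.06 TPM in KO and 9.97 and 0 TPM in Control. The log2 fold changes of the 3 genes tested were all above 0, with a median of 1.29. None of the 3 was called by edgeR (0 at an unadjusted p under 0.05) or DESeq2. The B lineage, mast cell, erythroid and neutrophil lists move with genotype beside every member. So does the summed TPM of the megakaryocyte list, where both KO libraries lay below both Control libraries in TPM for Pf4 alone. The part of these 5 lists in the values below was not tested. In such bulk samples, fewer cells of a type and less RNA per cell cannot be told apart. Control replicate 2 stood apart from the other libraries in immediate early genes, whose summed level was 428 and 352 TPM in KO replicates 1 and 2, against 540 and 6188 TPM in Control replicates 1 and 2. Fold changes, orders and shares that turn on this library are also given without it.

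The stretches before the transcription starts of the family were searched for short DNA motifs that transcription factors can read. Of these stretches 4 are shown, because the genes concerned, or their regulators, are discussed below. All are RefSeq sequences of the GRCm38.p6 build, read 5′ to 3′ on the strand of the gene, with a match to a searched motif in capitals. The first is the whole 250 bases before Bcl2, with TGACG (the half-site of the cAMP response element) in capitals. The next are the surroundings of a forkhead motif (TGTTTAC on either strand), the kind of element that FOXO3 binds, before Bcl2l11 and Bbc3. The last surrounds a match to the p53 half-site before Bax.
Bcl2, chr1:106714291-106714540, minus strand: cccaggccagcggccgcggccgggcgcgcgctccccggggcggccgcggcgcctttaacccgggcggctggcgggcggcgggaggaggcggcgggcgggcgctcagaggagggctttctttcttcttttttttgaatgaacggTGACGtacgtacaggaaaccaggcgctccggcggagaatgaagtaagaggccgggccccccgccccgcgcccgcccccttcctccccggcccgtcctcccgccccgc
Bcl2l11, chr2:128125791-128125837, plus strand: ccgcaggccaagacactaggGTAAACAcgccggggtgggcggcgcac
Bbc3, chr7:16310074-16310120, plus strand: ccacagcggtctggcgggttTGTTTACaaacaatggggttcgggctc
Bax, chr7:45467070-45467119, minus strand: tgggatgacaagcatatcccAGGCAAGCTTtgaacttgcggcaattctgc

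The table used holds 32851 such windows for all genes and 15 for 9 of the members, since several members have more than 1 start. TGACG occurred in 17.8% of all windows and in 2 of the 15 member windows, 1 each of Bcl2 and Bbc3. The forkhead motif occurred in 3.17% of all windows and in the 2 member windows printed. For both Bbc3 windows with a match, the bases checked after the RefSeq start were found in no GENCODE M21 transcript of the gene. The p53 half-site occurred in 7.13% of all windows and, among the 15, before Bax alone. The AP-1 site TGACTCA (4.46% of all windows), the ETS site CCGGAAGT (2.88%) and the CArG box (1.47%) were in none of the 15. These matches on both strands describe letters and do not show that a factor binds.

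Bcl2 had the smallest p of the family, and whether it passed adjustment depended on the tool. The gene (ENSMUSG00000057329, GRCm38 chromosome 1, 106538178 to 106714274) codes for the founding antiapoptotic protein, and its transcript level was 28.9 and 25.4 TPM in KO replicates 1 and 2, against 18.8 and 18.8 TPM in Control replicates 1 and 2. Both KO libraries lay above both Control libraries, and the Control replicates were nearly the same. The counts behind these levels were 4646 and 4149 in KO and 1921 and 2129 in Control. The log2 fold change was 0.47 (SE 0.120, 95% interval 0.20 to 0.75), a ratio of 1.39 between KO and Control. The edgeR test gave an unadjusted p of 0.00436 and an adjusted p of 0.232, so Bcl2 was not called. DESeq2 on the same counts called it (adjusted p = 0.000387, log2 fold change 0.47). DESeq2 called 4.26% of all genes higher and 3.51% lower in KO, far larger shares than edgeR did, and no member lower. Over the alternatives tried the adjusted p ran between 0.000387 and 0.967, and the log2 fold change stayed between 0.40 and 0.55. Without Control replicate 2 the log2 fold change was 0.48 (edgeR, adjusted p = 0.139).

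Of 70 measured genes in the pathway lists described below, those whose profile over the 4 libraries was nearest to that of Bcl2 were Bcl2l12, Foxo3 and Aen, with root mean square distances of 0.0800, 0.119 and 0.119 between centred log2 CPM values (CPM is the count scaled by the depth of the library). Bcl2l12, a family relative, had 32.4 and 26.5 CPM in KO and 21.9 and 23.3 CPM in Control. Foxo3, a forkhead transcription factor that maintains hematopoietic stem cells, had 224 and 257 CPM in KO and 169.8 and 170.8 CPM in Control. Aen, a p53-induced exonuclease, had 70.6 and 72.5 CPM in KO and 60.0 and 50.1 CPM in Control. The likeness describes 4 libraries that share their groups, and carries no test.

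**Figure D1:**
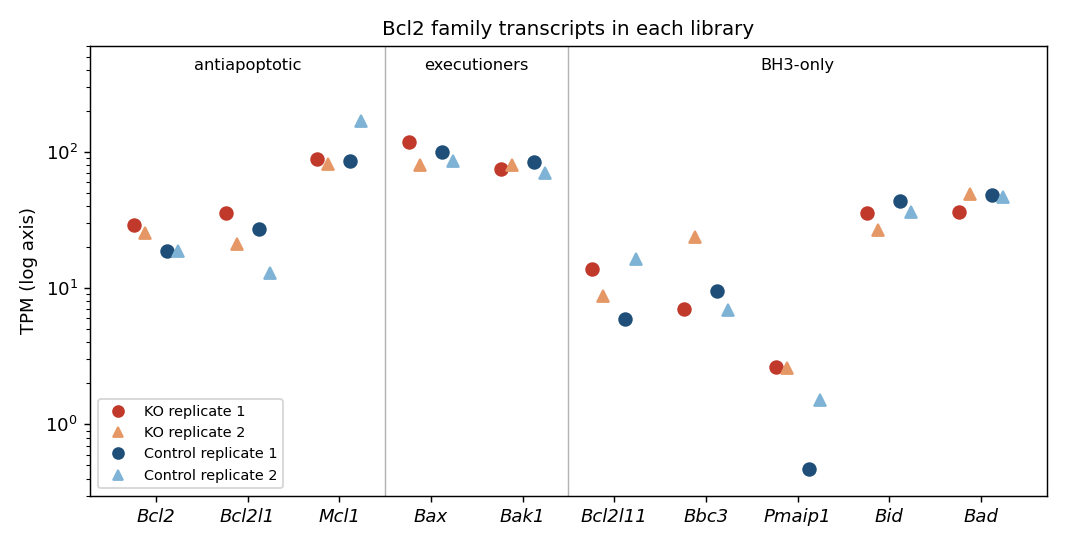
TPM of each Bcl2 family gene (log axis) in the 2 KO libraries (red and orange) and the 2 Control libraries (dark and light blue), with 1 point per library and lines between the functional classes. Both KO points lie above both Control points for Bcl2 and Pmaip1 and below them for Bid, and Mcl1 is highest in Control replicate 2 at 169.8 TPM.

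Bcl2l1 leaned the same way as Bcl2 with much wider spread. This gene (ENSMUSG00000007659, chromosome 2, 152780668 to 152831728), whose product BCL-XL protects among others erythroid cells and platelets, had 35.7 and 20.96 TPM in KO and 27.2 and 12.9 TPM in Control. In TPM the groups overlapped, since KO replicate 2 lay below Control replicate 1. In counts scaled by depth alone they did not, at 38.7 and 30.9 CPM in KO and 27.3 and 20.8 CPM in Control. The log2 fold change was 0.53 (SE 0.248, 95% interval -0.04 to 1.11), and edgeR gave an adjusted p of 0.514. Without Control replicate 2 it was 0.35 (edgeR, adjusted p = 0.570).

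Mcl1 showed the reverse order of means, and the gap rested on Control replicate 2. Mcl1 (ENSMUSG00000038612, chromosome 3, 95658788 to 95663176), which codes for a short-lived antiapoptotic protein, had 89.0 and 81.0 TPM in KO replicates 1 and 2, against 86.0 and 169.8 TPM in Control replicates 1 and 2. Control replicate 1 lay between the KO libraries, and Control replicate 2 was well above the other 3. On the log2 scale the fold change was -0.63 (SE 0.328, 95% interval -1.47 to 0.21) and did not pass the test (edgeR, adjusted p = 0.587). Without Control replicate 2 it was -0.03 (edgeR, adjusted p = 0.920). Without Control replicate 1 it was -1.05, and Mcl1 was then called lower in KO (edgeR, adjusted p = 0.000154), beside 0.893% of all genes called lower in that fit.

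The Control replicates thus differed from each other in Mcl1 far more than the KO replicates did. On the log2 scale of depth-scaled counts the gap between replicates was larger for Mcl1 than for 98.4% of the 8051 genes with at least 20 CPM in Control, and larger than for 34.8% of the 8038 such genes in KO. Immediate early genes are those transcribed soon after a stimulus, and all 8 on the marker list were highest in Control replicate 2. Fos, a subunit of the AP-1 factor, had 97.1 and 79.6 TPM in KO and 107 and 2087 TPM in Control. Jun, its partner, had 153 and 123 TPM in KO and 176 and 1305 TPM in Control. Their part in the Mcl1 value was not tested.

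**Figure D2:**
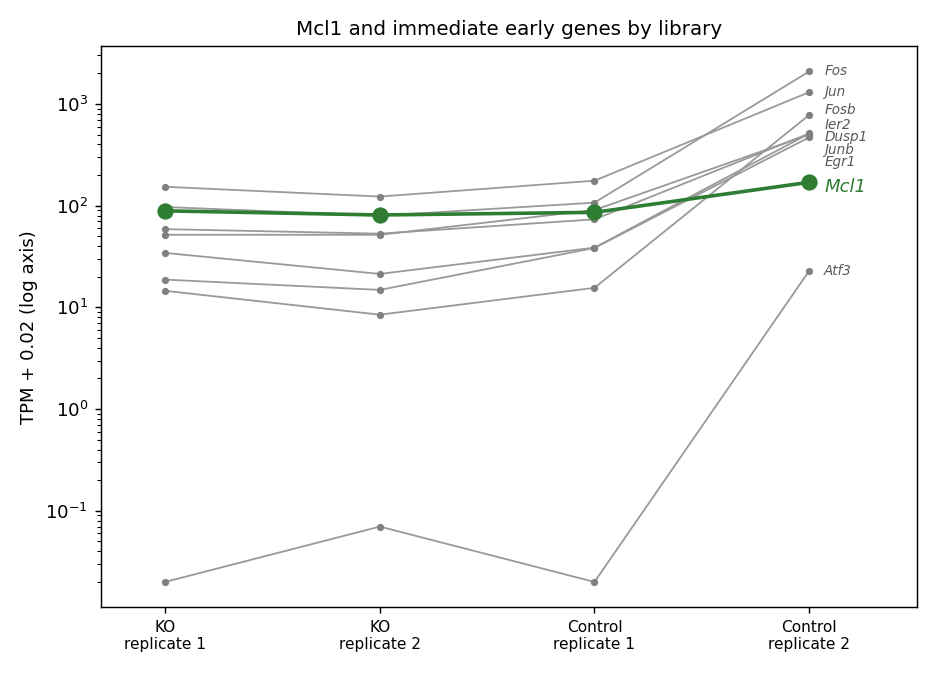
TPM plus 0.02 (log axis) of Mcl1 (green) and of 8 immediate early genes (grey) in each library, with lines joining the values of 1 gene. Mcl1 is at 81.0 to 89.0 TPM in 3 libraries and at 169.8 TPM in Control replicate 2, where every grey line also has its highest point.

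The executioner genes did not separate the genotypes. Bax (ENSMUSG00000003873, chromosome 7, 45461697 to 45466898) had 118 and 80.0 TPM in KO and 100.2 and 85.8 TPM in Control, and both Control values lay within the KO range. Its log2 fold change was 0.03 (SE 0.238, 95% interval -0.52 to 0.58, edgeR adjusted p = 0.991), and -0.06 without Control replicate 2 (edgeR, adjusted p = 0.930). Bak1 (ENSMUSG00000057789, chromosome 17, 27019810 to 27029009) had 74.8 and 79.7 TPM in KO and 84.0 and 70.5 TPM in Control, and here both KO values lay within the Control range. Its log2 fold change was -0.10 (SE 0.130, 95% interval -0.40 to 0.20, edgeR adjusted p = 0.898). Exons on the opposite strand overlap 18.2% of the exonic bases of Bak1 (Ggnbp1, at most 7.77 TPM in a library). For Bax, exons of another gene on the same strand overlap 12.2% of the exonic bases (Gm45808, at most 5.96 TPM in a library). The interval of Bak1 was narrower than that of Bax, and keeps its ratio between 0.758 and 1.15. A change of Bax by as much as 1.49 times upward or to 0.697 of Control was within its interval, so these libraries do not exclude a difference of that size.

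Among the BH3-only genes, Pmaip1, Bbc3 and Bcl2l11 were the least abundant members by mean TPM in both groups. Single libraries departed from this. Bbc3 (23.76 TPM) was above Bcl2l1 (20.96 TPM) in KO replicate 2, and Bcl2l11 (16.45 TPM) was above Bcl2l1 (12.93 TPM) in Control replicate 2. Pmaip1 (ENSMUSG00000024521, chromosome 18, 66458533 to 66465565), whose product NOXA binds MCL1, was the least abundant member, with 2.65 and 2.60 TPM in KO and 0.47 and 1.51 TPM in Control. Both KO libraries were above both Control libraries, and the KO replicates were close together while Control replicate 1 was very low. The counts were 158 and 156 in KO and 16 and 63 in Control, so the Control values rest on few reads. The estimated log2 fold change was 1.39 (SE 0.931, 95% interval -0.77 to 3.54, edgeR adjusted p = 0.677). It was 0.75 without Control replicate 1 and 2.58 without Control replicate 2 (edgeR, adjusted p = 0.715 and 0.196), so its size is set by which Control library is used.

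Bbc3 (ENSMUSG00000002083, chromosome 7, 16308393 to 16318205), which codes for PUMA, an activator of apoptosis after DNA damage, was high in a single KO library. It had 7.04 and 23.8 TPM in KO replicates 1 and 2, against 9.57 and 6.86 TPM in Control. On the TPM scale KO replicate 1 fell within the Control range. In depth-scaled counts the groups did not overlap, at 7.70 and 14.9 CPM in KO and 6.80 and 5.58 CPM in Control. For Bbc3 the estimate on the log2 scale was 0.87 (SE 0.469, 95% interval -0.22 to 1.95, edgeR adjusted p = 0.574). Without KO replicate 2 it was 0.32, and without KO replicate 1 it was 1.27, with no call by edgeR in either case.

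Bid was the member for which both KO libraries lay below both Control libraries. Bid (ENSMUSG00000004446, chromosome 6, 120891930 to 120916853), which links death receptors to mitochondria once caspase 8 has cut it, had 35.7 and 26.9 TPM in KO and 43.8 and 36.2 TPM in Control. KO replicate 1 and Control replicate 2 were nearly level, so the groups only just stayed apart. The log2 fold change was -0.29 (SE 0.194, 95% interval -0.74 to 0.15, edgeR adjusted p = 0.666). Of its 3550 exonic bases 17.7% lie opposite exons of Bcl2l13, a neighbour on the other strand. The sources used here do not say whether the counting used strand, so reads from that stretch cannot be assigned with certainty. Bcl2l13, a mitochondrial receptor for mitophagy, had 43.4 and 16.6 TPM in KO and 82.1 and 30.9 TPM in Control.

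Bcl2l11 (ENSMUSG00000027381, chromosome 2, 128126038 to 128162547) codes for BIM, which sets the death of blood cells deprived of cytokines. It had 13.8 and 8.73 TPM in KO and 5.98 and 16.4 TPM in Control, and the Control libraries enclosed both KO libraries. On the log2 scale the fold change was -0.09 (SE 0.304, 95% interval -0.80 to 0.61, edgeR adjusted p = 0.972). Without Control replicate 2, the highest library, its sign turned to 0.29 (edgeR, adjusted p = 0.702). Bad (ENSMUSG00000024959, chromosome 19, 6941861 to 6951899), a BH3-only gene whose product is held inactive by phosphorylation when growth factors are present, had 36.4 and 49.2 TPM in KO and 48.2 and 46.4 TPM in Control. The Control values lay within the KO range, and 20.5% of the exonic bases of Bad lie opposite exons of Gpr137, at 20.8 and 8.75 TPM in KO and 46.2 and 18.2 TPM in Control. Its estimated log2 fold change was -0.19 (SE 0.277, 95% interval -0.83 to 0.45, edgeR adjusted p = 0.919), and -0.01 without Control replicate 2 (edgeR, adjusted p = 0.991).

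Over the family, all 10 genes passed the filter on low counts and edgeR called none of them in either direction, beside 0.663% of all genes called. At an unadjusted p under 0.05, edgeR passed 1 member as higher (Bcl2) beside 5.81% of all genes, and 0 members as lower beside 4.61%. DESeq2 passed 2 members as higher at that unadjusted level (Bcl2 and Bcl2l1) beside 10.4% of all genes, and 0 as lower beside 8.8%. In depth-scaled counts both KO libraries lay above both Control libraries for 4 members (Bcl2, Bcl2l1, Bbc3 and Pmaip1), beside 22.7% of all genes, and below them for 1 (Bid), beside 19.3%. In TPM this held for 2 members above (Bcl2 and Pmaip1), beside 23.1% of genes, and for 1 below (Bid), beside 16.8%. The members' counts are small, and in TPM their shares were near those of all genes. The fold changes were above 0 for 5 members and below 0 for the other 5, and the median over all genes tested was 0.01. A single gene's exact permutation test with 2 libraries against 2 cannot go below p = 0.333, so these p-values rest on spread pooled over genes.

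**Figure D3:**
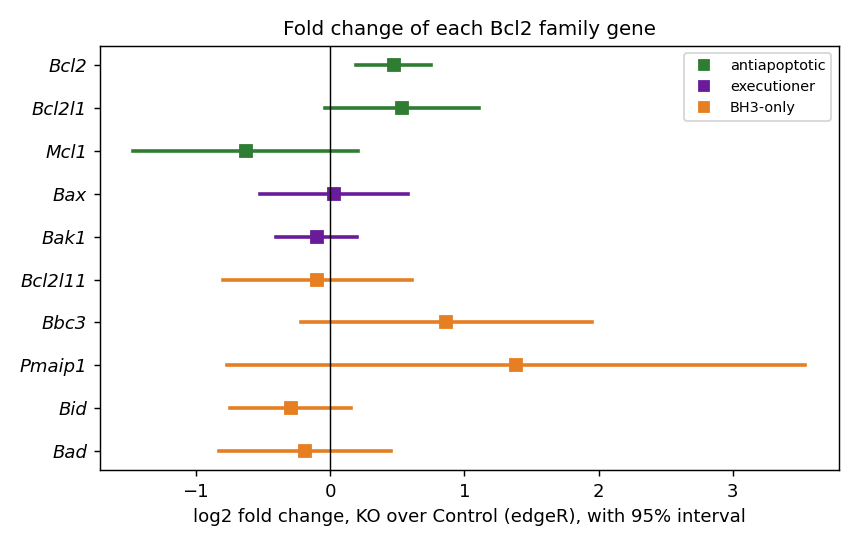
Log2 fold change of each Bcl2 family gene, KO over Control, from edgeR (squares, coloured by functional class) with 95% intervals (bars, n = 2 per group) and a line at no change. The interval of Bcl2, 0.20 to 0.75, lies above 0, while those of the other 9 genes include 0.

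Because TPM accounts for length, levels can also be set side by side between members. In KO the executioners and Mcl1 led, with Bax at 98.8 ± 26.6 TPM, Mcl1 at 85.0 ± 5.64 TPM and Bak1 at 77.3 ± 3.49 TPM (SD, n = 2). Bad (42.8 ± 9.04 TPM), Bid (31.3 ± 6.22 TPM), Bcl2l1 (28.3 ± 10.4 TPM) and Bcl2 (27.2 ± 2.49 TPM) formed the middle. Bbc3 (15.4 ± 11.8 TPM), Bcl2l11 (11.3 ± 3.62 TPM) and Pmaip1 (2.63 ± 0.0354 TPM) were lowest. Neighbours in this order whose KO replicates overlapped were Bax and Mcl1, Bid and Bcl2l1, Bcl2l1 and Bcl2, and Bbc3 and Bcl2l11. In Control the order was the same but for Mcl1 (128 ± 59.3 TPM) ahead of Bax (92.96 ± 10.2 TPM), and Bcl2l11 (11.2 ± 7.40 TPM) ahead of Bbc3 (8.22 ± 1.92 TPM). Both changes of order rested on Control replicate 2. In Control replicate 1 Bax (100.2 TPM) was ahead of Mcl1 (86.0 TPM), and Bbc3 (9.57 TPM) was ahead of Bcl2l11 (5.98 TPM). That is the order of the KO means, which rested on a single library for each pair as well. Mcl1 (80.98 TPM) was ahead of Bax (80.02 TPM) in KO replicate 2. Bcl2l11 (13.85 TPM) was ahead of Bbc3 (7.04 TPM) in KO replicate 1. Both of these pairs overlapped between replicates in Control too, as did Bcl2l1 and Bcl2. Bcl2 was thus not the main antiapoptotic transcript in either genotype: Mcl1 made up 57.9% and 63.6% of the summed antiapoptotic TPM in KO and 65.2% and 84.3% in Control.

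The antiapoptotic genes together took 34.8% and 31.98% of the summed TPM of the 10 members in KO replicates 1 and 2, against 31.1% and 43.3% in Control replicates 1 and 2. The KO values lay inside the Control range, whose upper end is Control replicate 2. Against Control replicate 1 alone, the shares of both KO libraries were higher. With Mcl1 left out, the same share was 18.3% and 14.6% in KO and 13.6% and 10.7% in Control, and both KO libraries were then above both Control libraries. The ratio of Bcl2 to Bax TPM was 0.246 and 0.318 in KO and 0.187 and 0.219 in Control, and that of Bcl2 to Mcl1 was 0.325 and 0.314 in KO and 0.218 and 0.111 in Control. Both ratios were higher in each KO library than in each Control library, as was Bcl2, the numerator of both, by itself. In TPM 23.1% of all genes lay above in the same way. The executioner sum was 192 and 159.7 TPM in KO and 184 and 156 TPM in Control, and the BH3-only sum was 95.6 and 111 TPM in KO and 108 and 107 TPM in Control, so these 2 sums overlapped. No test was run on sums or ratios over chosen members.

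The files also hold RSEM's effective length of each gene, which shifts when reads are assigned to longer or shorter transcripts of it. For Mcl1 it was nearly fixed, at 3146 to 3159 bases over all libraries, and for Bcl2 it ran from 6634 to 6837 bases. It was least stable for Bbc3, Bcl2l11 and Bcl2l1, whose longest value exceeded the shortest by factors of 1.79, 1.75 and 1.57. Bbc3 had 1555 and 868 bases in KO and 984 and 1099 bases in Control, so its high TPM in KO replicate 2 went with the shortest length. Bcl2l11 had 2755 and 3246 bases in KO and 4467 and 2559 bases in Control. Bcl2l1 had 1543 and 2043 bases in KO and 1391 and 2179 bases in Control, with the replicates of a group further apart than the groups. Bcl2l11 makes BIM isoforms that differ in potency, and Bcl2l1 makes a long and a short form with opposite effects on survival, but the gene-level files do not say which transcripts the reads came from.

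**Figure D4:**
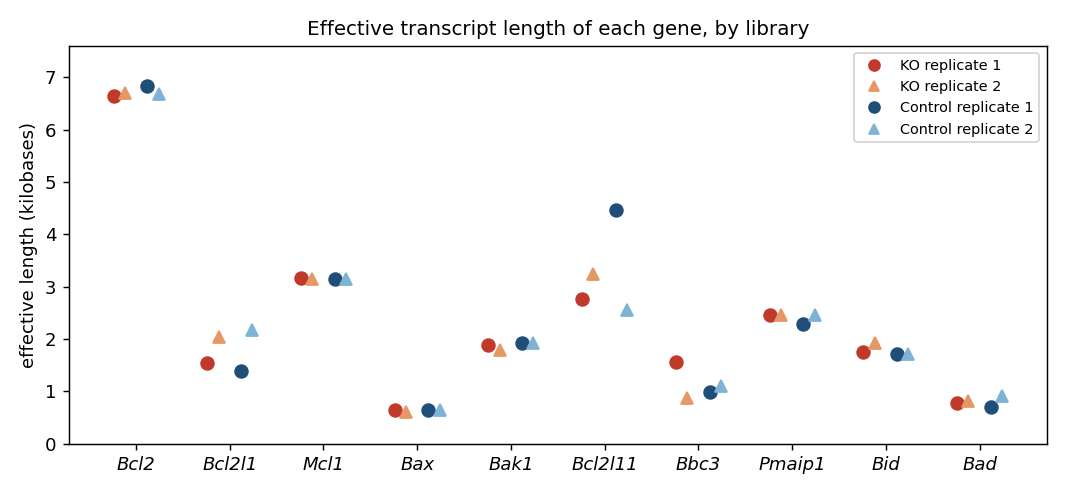
RSEM effective length in kilobases (linear axis from 0) of each Bcl2 family gene in the KO (red and orange) and Control (dark and light blue) libraries, 1 point per library. Mcl1 and Bcl2 points nearly coincide, while Bcl2l11 in Control replicate 1 and Bbc3 in KO replicate 1 lie above the other libraries.

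The genes around the family were read from 5 lists, each with counts and a median and no set test. edgeR called no gene of any of the 5 lists at an adjusted p under 0.05. At an unadjusted p under 0.05, the wider Bcl2 family had 0 genes higher and 2 lower of 11 tested, the caspase cascade 1 higher and 2 lower of 17, regulators of the members 2 higher and 0 lower of 19, death receptors 0 in both directions of 8, and p53 targets 3 higher and 1 lower of 15, beside 5.81% of all genes higher and 4.61% lower. DESeq2, at an adjusted p under 0.05, called Casp2, Foxo3, Trp53inp1 and Zmat3 higher and Bcl2l13 and Sesn2 lower, beside 4.26% of all genes called higher and 3.51% lower by that tool, and limma on TPM called none. The list counts are small, and nothing particular to a list is read from them. Median log2 fold changes were -0.27, -0.12, 0.04, 0.02 and 0.30 in this order of lists, beside 0.01 for all genes. With genes absent from Control set at a bound of 3 counts over the group, the first became -0.25 and the last 0.35.

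In the caspase cascade list, Casp2, a caspase activated by the PIDDosome, had 63.9 and 58.8 TPM in KO and 49.1 and 45.0 TPM in Control. Both KO libraries lay above both Control libraries. Its log2 fold change was 0.37 (SE 0.122, edgeR unadjusted p = 0.0158, adjusted p = 0.363). Diablo (-0.50) and Htra2 (-0.47), which code for mitochondrial proteins that block caspase inhibitors once released, had fold changes below 0, with edgeR adjusted p of 0.456 and 0.440. In the wider family the 4 smallest p-values belonged to Bcl2l13 (-0.43), Becn1 (-0.30), an autophagy protein bound by BCL2, Bmf (2.52), a BH3-only gene at 2.32 and 2.68 TPM in KO and 0 and 0.83 TPM in Control, and Bcl2a1d, an antiapoptotic gene at 0.96 and 1.02 TPM in KO and 0 in both Control libraries. Their edgeR adjusted p were 0.305, 0.447, 0.596 and 0.616. Bcl2a1d has near-identical copies among which reads can be split, so its value is uncertain.

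Upstream, Foxo3 had the smallest p of the regulators, with 49.4 and 55.2 TPM in KO and 36.8 and 37.1 TPM in Control. Its log2 fold change was 0.50 (SE 0.109, edgeR unadjusted p = 0.00190, adjusted p = 0.156), so like Bcl2 it stood apart in both libraries without passing the adjusted threshold. Bcl2l11 and Bbc3, the members with the printed forkhead motif and known FOXO3 targets, had fold changes of -0.09 and 0.87. Both intervals include 0. The Bbc3 motif lies before a RefSeq start whose following bases were found in no GENCODE M21 transcript of the gene. Ywhab (0.24) and Ywhae (0.16), which code for 14-3-3 proteins that bind phosphorylated BAD, and Akt1 (-0.14), the kinase that phosphorylates it, had edgeR adjusted p of 0.475, 0.637 and 0.709. Of the death receptor genes, Ripk1 (0.19), Casp8 (0.13), Cflar (-0.18) and Tnfrsf1a (0.14) had the smallest p, none under 0.212 before adjustment by edgeR.

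Among p53 targets, Trp53inp1, a proapoptotic cofactor of p53, had 17.4 and 14.4 TPM in KO and 7.71 and 11.01 TPM in Control, and Zmat3, an RNA-binding p53 target, had 3.5 and 2.06 TPM in KO and 1.0 and 0.8 TPM in Control. Their log2 fold changes were 0.78 (SE 0.216) and 1.28 (SE 0.418), with edgeR adjusted p of 0.277 and 0.364. Sesn2, a stress-induced brake on mTORC1, went the other way at -0.85 and Aen was at 0.38 (edgeR adjusted p = 0.440 and 0.472). The next genes were chosen after their values were seen, because they show how the Control libraries differed. Cdkn1a, the cell cycle inhibitor, had 24.1 and 19.0 TPM in KO and 2.22 and 14.9 TPM in Control. Phlda3, an inhibitor of AKT, had 9.03 and 9.93 TPM in KO and 2.26 and 9.87 TPM in Control. Both were lowest in Control replicate 1, as was Pmaip1. The p53 list was mixed in this. Trp53inp1 was also lowest in Control replicate 1, while Zmat3 and Aen were lowest in Control replicate 2, as was the member Bbc3. Btg2, an antiproliferative gene, had 16.6 and 18.7 TPM in KO and 20.1 and 138 TPM in Control, highest in Control replicate 2, as was Mcl1. Trp53 itself had 227 and 222 TPM in KO and 234 and 190.4 TPM in Control, and the KO values lay within the Control range.

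**Figure D5:**
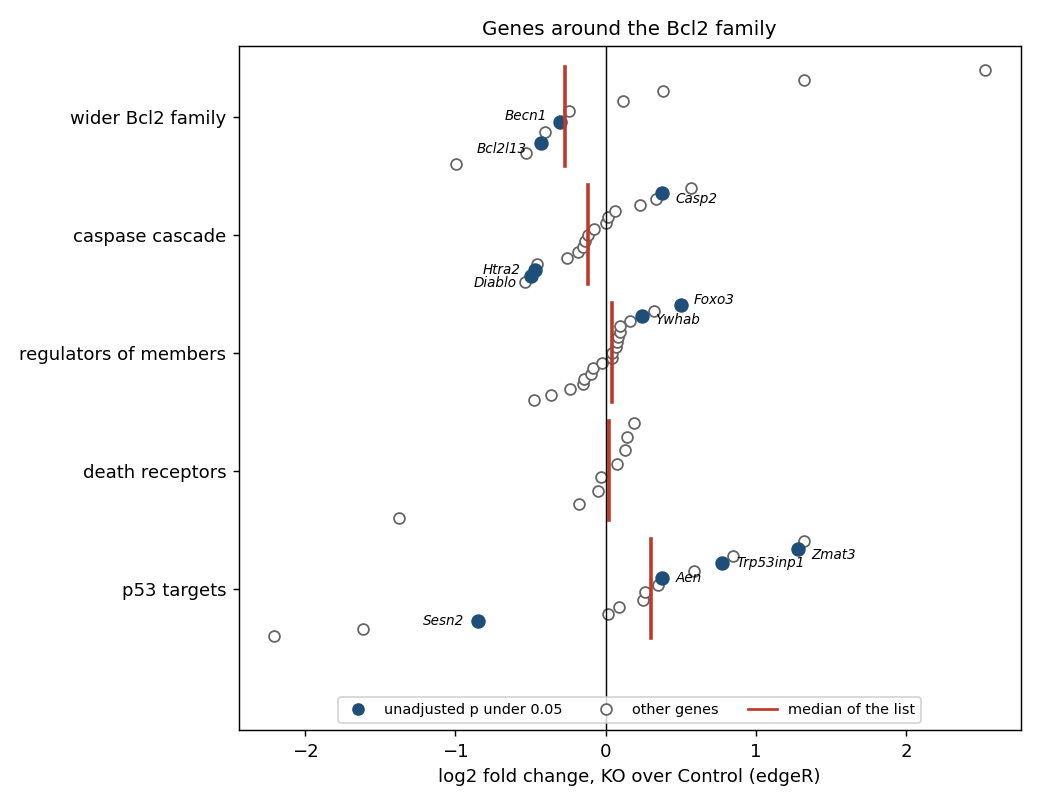
Log2 fold change, KO over Control, of each tested gene in 5 lists around the Bcl2 family (edgeR, n = 2 per group), with genes at an unadjusted p under 0.05 filled and named and the list median as a red line; genes with no count in a group are not drawn. The medians run from -0.27 for the wider Bcl2 family to 0.30 for p53 targets, and no gene shown passed an adjusted p of 0.05.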

How the data were processed

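RNA was kept in RNAlater after sorting, extracted with a Qiagen RNeasy kit, selected for polyadenylated transcripts and made into directional libraries, per the labels. STAR, RSEM and the mm10 build are named in the notes of the submitters. The sources used here give no version, annotation or strand setting. The deposited files hold RSEM expected counts per gene, not normalized, and the authors' TPM values, scaled per length and library. RSEM's effective lengths and posterior mean counts were read from the same files. The credibility bounds of TPM deposited by the authors, handled as a signal, were copied beside the member values and are not printed.

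Gene IDs without version were matched to GENCODE M21 (GRCm38), which gave a symbol to 55141 of 55401 models. Promoter windows are RefSeq sequences, and none is shown for Pmaip1. Rounded expected counts were compared between groups with edgeR 4.0.16 (R 4.3.3; TMM, filterByExpr with a minimum count of 10, glmQLFit with robust=TRUE, quasi-likelihood F test, genotype only, two-sided), with Benjamini-Hochberg adjustment over 14635 genes. Calls required an adjusted p under 0.05. SE values come from the unshrunk coefficient and the square root of its F statistic. CPM values use TMM-scaled library sizes. The common dispersion was 0.222. The script was first tested on simulated data of smaller dispersion, with changes larger than those of the members. That test does not show how well changes of the members' size would be found here.

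Alternatives were DESeq2 1.42.0, RLE size factors, no filter, limma 3.58.1 on log2(TPM + 1) and log2(TPM + 0.1), an effective length offset, posterior mean counts, a replicate block and leaving out each library. Some genes of the caspase list are not reported here. The members and gene lists were chosen with earlier results of these data known. The text names all members and up to 4 genes of each pathway list with the smallest p, with Cpt1a, the 3 genes most like Bcl2, and markers only beside a result. Trp53, Cdkn1a, Phlda3 and Btg2 are exceptions, named after their values were seen. The sums of counts limit precision in the Control libraries most.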

Additional observations from a re-analysis of the deposited data

How the results depend on the processing

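With 2 libraries per group, leaving out 1 makes the lone library of that group take its spread from the other group, as edgeR then assumes. Across 12 alternatives for each of the 10 members (120 values), 108 kept the direction and the side of the threshold, 10 changed sign without being called, and 2 became calls. DESeq2 raised the members called higher to 1 (Bcl2), against 0 with edgeR. Leaving out 1 library at a time gave 0 members called higher in each case and 0 to 1 called lower. The call was Mcl1 without Control replicate 1, at -1.05, while without Control replicate 2 it was at -0.03, and the cause was not tested.

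Signs changed for small effects. Bak1 was 0.0051 with limma on log2(TPM + 1) and 0.0052 on log2(TPM + 0.1), and Bcl2l11 was 0.12 and 0.15. With 1 library left out, Bax ran from -0.30 to 0.30, Bak1 from -0.21 to 0.019, Bcl2l11 from -0.39 to 0.29 (the highest without Control replicate 2) and Bad from -0.49 to 0.064. Bbc3 ran from 0.32 to 1.27 and Pmaip1 from 0.75 to 2.58.

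Over all genes, 66 were called higher and 31 lower by edgeR. The counts were 111 higher and 85 lower with no filter, 623 and 513 with DESeq2, 5 and 0 with limma on log2(TPM + 1), 0 and 0 with limma on log2(TPM + 0.1), 3 and 1 with the effective length offset, and 24 to 238 and 18 to 144 with 1 library left out (edgeR). The antiapoptotic share, with a mean of 33.4% in KO and 37.2% in Control, was 16.5% in KO and 12.2% in Control without Mcl1. The order of the means with Mcl1 rests on Control replicate 2, since the share in Control replicate 1 was 31.1%, below both KO libraries.

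Whether the replicate numbers pair the samples is not known, since no label ties a number to an animal or a day. The correlation of deviations between libraries of the same number was -0.01. It rests on a single difference between replicates in each group, so it cannot settle the question. With the replicate number as a block, edgeR called 62 genes higher and 36 lower and 0 members in either direction, and it put Bcl2 at 0.47 on the log2 scale (adjusted p = 0.260).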
